A study of Mus musculus with 8 samples.

Results

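The genes described here are 9 enzymes of the pentose phosphate pathway and of cytosolic NADPH supply, measured by RNA sequencing in epididymal white fat, the visceral fat pad beside the epididymis of male mice. They were taken by gene name from the 37417 genes of the deposited table: G6pdx, Pgls and Pgd, Rpia, Rpe, Taldo1 and Tkt, and Me1 and Idh1. All 9 were found and all 9 passed the filter on low counts that left 14800 genes for testing. The KO group held 4 C57Bl/6 mice labelled Adiponectin-Cre ERT2-Atg3 flox/flox, in which tamoxifen-activated Cre under the adiponectin promoter, a promoter of adipocytes, deletes Atg3, a gene needed for autophagy. The WT group held 4 C57Bl/6 mice labelled WT. Their labels name no floxed allele and no Cre. Tamoxifen was given to both groups, all mice were male and ate chow, and the labels give no age. Fat also holds cells in which this promoter is silent, and those cells keep Atg3.

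The pentose phosphate pathway branches off glycolysis at glucose-6-phosphate. Its oxidative arm makes NADPH, the electron donor of fatty acid synthesis and of the glutathione and thioredoxin systems, and its non-oxidative arm interconverts sugar phosphates and returns them to glycolysis. In adipocytes malic enzyme and cytosolic isocitrate dehydrogenase are further sources of cytosolic NADPH. Several of these genes are known targets of NRF2, the transcription factor of the antioxidant response, and several follow the lipogenic state of fat.

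Total counts ran from 12952190 to 21688464 in KO libraries and from 10986375 to 17128811 in WT libraries. Atg3 averaged 30.3 ± 1.84 CPM in KO fat and 50.2 ± 4.34 CPM in WT fat (SD, n = 4 each), without overlap, so each library sat on the side of its label. CPM here are counts scaled to the library total, with TMM correction. The labelled tissue was checked on 10 adipocyte markers, none of which was at 0 in all libraries of a genotype; they summed to 29967 to 35098 CPM in KO libraries and 36590 to 44650 CPM in WT libraries, and 9 of the 10 had a lower mean in KO fat. Summed CPM of 21 duct epithelium markers was 96.3, 742, 769 and 98.1 in KO libraries 1 to 4, against 40.7 to 65.1 in WT libraries. All 21 had a higher mean in KO fat, and 2 of them had no read in any WT library. Summed CPM of 5 endothelium markers was 1157 to 1344 in KO libraries and 1391 to 1649 in WT libraries, and 0 of the 5 had a higher mean in KO fat. The mitochondrial share of counts was 5.03 to 6.08% in KO libraries and 3.05 to 4.93% in WT libraries. The part of these differences in the results that follow was not tested, and in whole tissue fewer cells of a type and less RNA per cell cannot be told apart.

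None of the 9 enzyme genes differed between the genotypes at an adjusted p of 0.05. The count was 0 of 9 with edgeR's quasi-likelihood test, with DESeq2 and with limma-voom, while edgeR called 60 of the 14800 tested genes (0.405%; 0.277% higher and 0.128% lower in KO fat), DESeq2 called 810 (5.47%) and limma-voom called 45 (0.304%). At an unadjusted p under 0.05 the count was also 0 of 9 with edgeR, against 16.2% of all tested genes. With DESeq2 it was 2 of 9, against 2490 of 14800 tested genes. The KO and WT libraries overlapped in CPM for all 9 genes, whereas 8.86% of tested genes did not overlap. The log2 fold change (log2FC, KO over WT) was above 0 for 8 of the 9 and below 0 for Idh1. The median over the 9 was 0.22, against -0.01 over all tested genes, of which 47.6% were above 0. Every 95% interval included 0, and the intervals together reached from -0.45 to 1.02, so for some of these genes a difference of up to about 1 on the log2 scale remained within the error.

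Sizes moved with the libraries and with the model, while the count of genes that passed stayed at 0. With the mean log2 CPM of the 12 tested duct epithelium markers as a covariate the log2FC was 0.93 for Pgd, 0.86 for G6pdx, 0.82 for Me1, 0.69 for Tkt, 0.59 for Rpe, 0.32 for Taldo1 and 0.26 for Idh1, each above its value without the covariate, and 0.02 for Rpia and -0.012 for Pgls. Pgd, G6pdx and Rpe then had an unadjusted p under 0.05 with edgeR, as did 1381 of 14800 tested genes. Under the covariate edgeR's adjusted p over the 9 genes was 0.492 or more. The SE was 0.34 for Pgd and 0.34 for G6pdx, against 0.23 for each without the covariate. Summed CPM of the duct markers was higher in every KO library than in any WT library. This fit therefore cannot fully separate the markers from genotype. With 1 library left out the log2FC ran from 0.33 (without WT library 1) to 0.64 (without KO library 3) for Pgd and from 0.27 to 0.56 for G6pdx at the same libraries. The lowest value also came without WT library 1, and the highest without WT library 3, for Tkt (0.26 to 0.57), Rpe (0.13 to 0.37) and Taldo1 (0.063 to 0.25). Me1 ran from 0.13 (without KO library 4) to 0.50 (without WT library 3), and Pgls from 0.0062 (without WT library 2) to 0.16 (without WT library 4).

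**Figure D1:**
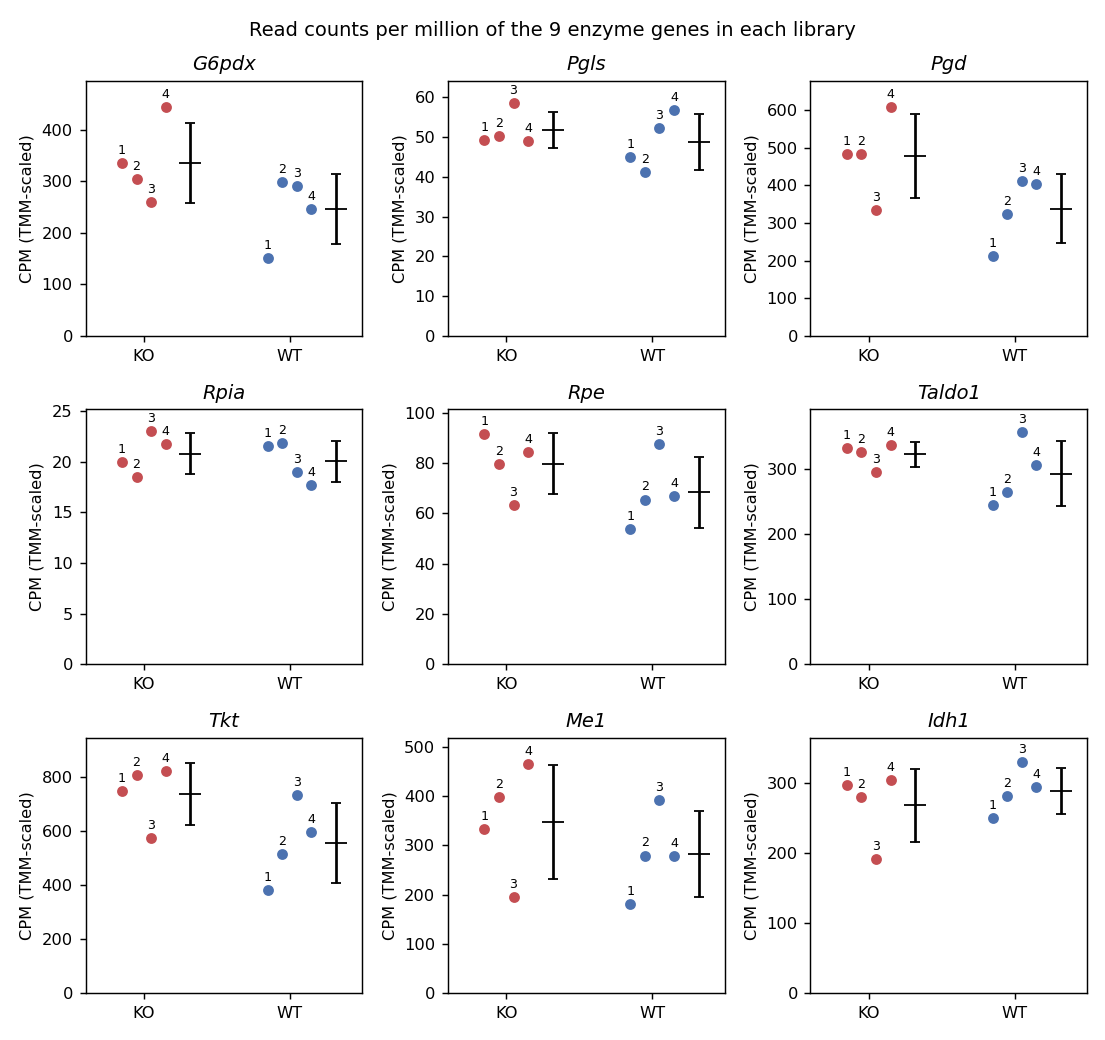
CPM (vertical axes, each from 0) of each enzyme gene in the KO libraries, at the left of each panel, and in the WT libraries, at the right. Numbers beside the points are library numbers and bars are the mean ± SD of 4 libraries; the points of the groups overlap in all 9 panels, and WT library 1 is the lowest point in 6 of them.

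The oxidative arm opens with G6pdx, the X-linked glucose-6-phosphate dehydrogenase that catalyses the committed step and makes NADPH. It had 336, 305, 260.5 and 443 CPM in KO libraries 1 to 4, against 151, 298, 291 and 246 CPM in WT libraries 1 to 4. KO library 4 was the highest of the 8 and WT library 1 the lowest, and KO library 3 lay below WT libraries 2 and 3. The mean was 336 ± 77.7 CPM in KO fat and 247 ± 67.9 CPM in WT fat (SD, n = 4 each). The log2FC was 0.45 (SE 0.23, 95% interval -0.08 to 0.97), with edgeR's adjusted p at 0.384. The gene lies on the minus strand of chromosome X, from 74409483 to 74429194 in build mm10. Ikbkg overlaps it on the opposite strand. Of the 3079 distinct 50-base words in its transcripts, 326 also occur in Ikbkg and 199 in G6pd2, an autosomal copy of the gene that had 3 to 6 reads in KO libraries and 0 to 4 in WT libraries. The libraries keep strand, but no source says whether counting used it, and the G6pdx counts are uncertain to that extent.

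Pgd, 6-phosphogluconate dehydrogenase, makes the second NADPH of the arm and had the largest log2FC of the 9. It had 482, 484, 335 and 607 CPM in KO libraries 1 to 4, against 213, 324, 412 and 403 CPM in WT libraries 1 to 4. KO libraries 1, 2 and 4 stood above every WT library, whereas KO library 3 stood below WT libraries 3 and 4. The mean was 477 ± 111 CPM in KO fat and 338 ± 92.2 CPM in WT fat (SD, n = 4 each), and the log2FC was 0.50 (SE 0.23, 95% interval -0.03 to 1.02; edgeR's adjusted p = 0.338, the lowest of the 9). Pgd lies on chromosome 4, minus strand, at 149149991 to 149166771, and 0.636% of its 50-base words occur in transcripts of other genes.

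Pgls, the 6-phosphogluconolactonase that works between these dehydrogenases, was far more even. It had 49.2, 50.3, 58.5 and 48.9 CPM in KO libraries 1 to 4, against 45.1, 41.1, 52.4 and 56.8 CPM in WT libraries 1 to 4. Its highest library was KO library 3, which was the lowest KO library for both dehydrogenases. The log2FC was 0.08 (SE 0.11, 95% interval -0.17 to 0.34; edgeR's adjusted p = 0.761). Pgls lies on chromosome 8, plus strand, at 71592176 to 71601092. It overlaps Fam129c on the same strand over 3445 bases, and 18.9% of its 50-base words occur in Fam129c transcripts. Fam129c itself had only 26 to 70 reads in KO libraries and 25 to 76 in WT libraries, while Pgls had 640 to 1018 reads in KO libraries and 524 to 867 in WT libraries.

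The promoter windows of G6pdx, Pgd and Me1 are shown because a motif of NRF2 binding, TGACNNNGC, was found in them. Rpe, Taldo1 and Tkt varied together with these genes over the libraries (described below), and their windows held no match. Each window holds 250 bases before and 50 after a transcription start of RefSeq, in build GRCm38.p6, printed 5′ to 3′ along the gene; capitals mark the motif match. The G6pdx window is chrX:74428831-74429130 on the minus strand, where the motif reads on the opposite strand and its match begins 57 bases before the start. The Pgd window is chr4:149166033-149166332 on the minus strand, at the downstream start of the 2 that RefSeq gives. Its match begins 3 bases after the first transcribed base, so it lies in the transcribed part of the window. Just before that start stand a run of T and the bases cag, as at the end of an intron. The match and the bases after it can be read as codons without a stop. It may therefore be coding sequence and not promoter sequence, which was not tested. The window at the upstream Pgd start, chr4:149166656-149166955, held no match. The Me1 window is chr9:86695865-86696164 on the minus strand, the upstream start of 2, and its match begins 6 bases before the start.
G6pdx: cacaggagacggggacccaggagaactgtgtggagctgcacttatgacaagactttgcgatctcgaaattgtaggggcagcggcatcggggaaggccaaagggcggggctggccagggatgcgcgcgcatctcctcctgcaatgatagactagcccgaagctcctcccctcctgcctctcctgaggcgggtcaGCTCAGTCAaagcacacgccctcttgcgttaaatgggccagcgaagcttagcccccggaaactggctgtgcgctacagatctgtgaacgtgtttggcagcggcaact
Pgd: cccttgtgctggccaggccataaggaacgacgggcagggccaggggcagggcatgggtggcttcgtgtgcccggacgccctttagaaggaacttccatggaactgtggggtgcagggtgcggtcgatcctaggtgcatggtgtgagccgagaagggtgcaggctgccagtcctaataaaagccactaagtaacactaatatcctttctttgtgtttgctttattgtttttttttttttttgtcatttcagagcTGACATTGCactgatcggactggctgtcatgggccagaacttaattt
Me1: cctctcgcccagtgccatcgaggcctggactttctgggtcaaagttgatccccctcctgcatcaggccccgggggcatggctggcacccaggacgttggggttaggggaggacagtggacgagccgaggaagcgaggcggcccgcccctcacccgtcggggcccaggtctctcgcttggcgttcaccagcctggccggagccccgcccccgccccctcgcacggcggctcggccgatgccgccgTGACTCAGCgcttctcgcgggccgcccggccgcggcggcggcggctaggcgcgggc
A match is a string of letters and not a measured binding site. RefSeq gives 12 windows for the 9 genes, and 3 of them, 1 in each of these 3 genes, held the motif on either strand. That count includes the Pgd match, which begins after the start and may be coding sequence. Among 32851 windows of all genes, 12.4% held it. The sterol-response motif TCACNCCAC was found in 0 of the 12 windows and in 1.24% of all windows, and the E-box CACGTG in 0 of the 12 and in 7.15% of all windows.

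The non-oxidative arm includes Tkt, the transketolase that moves carbon units between sugar phosphates. Tkt had 746, 807, 572 and 820.4 CPM in KO libraries 1 to 4, against 382, 513, 734 and 594 CPM in WT libraries 1 to 4. KO libraries 1, 2 and 4 were above all WT libraries and KO library 3 was within their range. The mean was 736 ± 114 CPM in KO fat and 556 ± 148 CPM in WT fat (SD, n = 4 each), and the log2FC was 0.41 (SE 0.20, 95% interval -0.05 to 0.86; edgeR's adjusted p = 0.361). Tkt lies on chromosome 14, plus strand, at 30548359 to 30574722, and none of its 50-base words was found in another gene's transcripts (0 of 7490). The table also lists a microRNA gene, Mir3076, inside Tkt on the same strand, with 90 to 176 reads in KO libraries and 55 to 95 in WT libraries. These reads are not scaled to library total, and the 176 came from KO library 4, the largest. Mir3076 spans 60 bases of Tkt, so its reads may be reads of Tkt, which was not tested.

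Taldo1, transaldolase, works beside transketolase and differed less. It had 333, 327, 295 and 337 CPM in KO libraries 1 to 4, against 245, 265, 357 and 306 CPM in WT libraries 1 to 4. The KO libraries lay close together, with an SD of 18.9 CPM against 49.6 CPM in WT, and WT library 3 was the highest of all 8. The log2FC was 0.14 (SE 0.12, 95% interval -0.14 to 0.42; edgeR's adjusted p = 0.624). The gene lies on chromosome 7, plus strand, at 141392199 to 141402968.

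The ribulose-5-phosphate epimerase Rpe and the ribose-5-phosphate isomerase Rpia supply transketolase with pentoses. Rpe had 91.6, 79.7, 63.3 and 84.4 CPM in KO libraries 1 to 4, against 53.6, 65.5, 87.4 and 66.7 CPM in WT libraries 1 to 4, so that WT library 1 was the lowest and KO library 3 the next. Its log2FC was 0.22 (SE 0.16, 95% interval -0.13 to 0.58; edgeR's adjusted p = 0.531). It lies on chromosome 1, plus strand, at 66700831 to 66719805, and 15.4% of its 50-base words occur in Kansl1l, which overlaps its end on the opposite strand.

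Rpia, whose product feeds ribose-5-phosphate to nucleotide synthesis, had 19.9, 18.5, 23.0 and 21.7 CPM in KO libraries 1 to 4, against 21.6, 21.8, 18.9 and 17.7 CPM in WT libraries 1 to 4. Its libraries were not ordered as for Pgd or Tkt: KO library 3 was the highest, and WT libraries 1 and 2 were above WT libraries 3 and 4. The log2FC was 0.05 (SE 0.11, 95% interval -0.20 to 0.30; edgeR's adjusted p = 0.851). Rpia lies on chromosome 6, minus strand, at 70765720 to 70792232, and its counts, 231 to 452 reads in a library, were the lowest of the 9.

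Outside the pathway, Me1, the cytosolic malic enzyme that turns malate into pyruvate and NADPH, varied most. It had 333, 398, 195 and 466 CPM in KO libraries 1 to 4, against 180, 279.5, 393 and 279.0 CPM in WT libraries 1 to 4. KO library 3 was below every WT library but WT library 1. The mean was 348 ± 115 CPM in KO fat and 283 ± 87.1 CPM in WT fat (SD, n = 4 each), and the log2FC was 0.30 (SE 0.29, 95% interval -0.35 to 0.95; edgeR's adjusted p = 0.655). Me1 lies on chromosome 9, minus strand, at 86581363 to 86695914. Of its 50-base words, 28.3% occur in transcripts of other genes, most of them in the models Gm7049 (21.1%) and Gm48795 (17.3%), so its count depends on how reads with several matches were treated, a setting the sources do not state.

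Idh1, the cytosolic isocitrate dehydrogenase, was the single gene of the 9 with a negative log2FC. It had 297, 281, 192 and 305 CPM in KO libraries 1 to 4, against 251, 282, 331 and 294 CPM in WT libraries 1 to 4. KO library 3 was well below the other 7 libraries, which lay between 251 and 331 CPM. The log2FC was -0.11 (SE 0.15, 95% interval -0.45 to 0.24; edgeR's adjusted p = 0.777), and without KO library 3 its sign turned, to 0.031. Idh1 lies on chromosome 1, minus strand, at 65158616 to 65186479, and none of its 50-base words was found in another gene (0 of 2859).

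**Figure D2:**
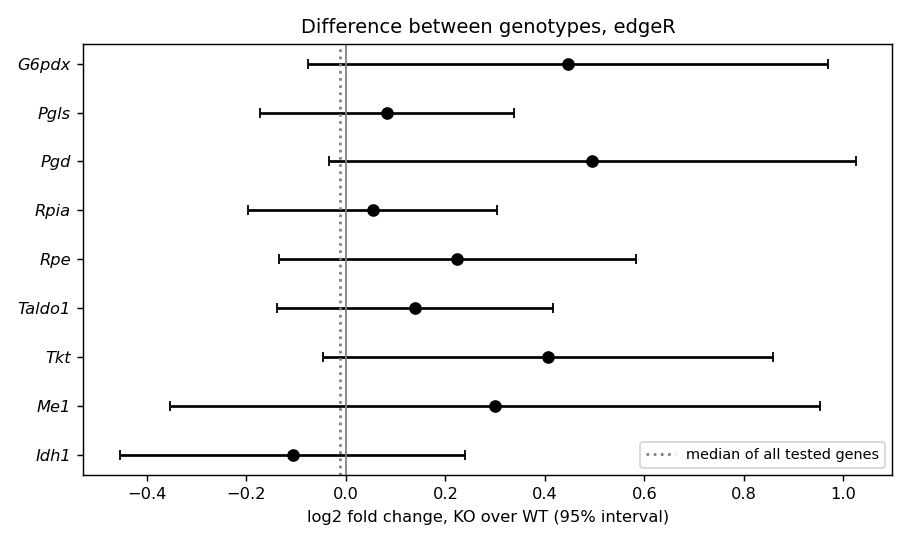
Log2 fold change of each enzyme gene, KO over WT (horizontal axis), as points with 95% intervals from edgeR; the dotted line is the median of all tested genes, -0.01. Pgd, G6pdx and Tkt lie farthest to the right, at 0.50, 0.45 and 0.41, and every interval crosses 0.

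Each of 3 cytosolic enzymes was also set against the enzyme of the same reaction type in another compartment, as a ratio of reads within a library, in which library scaling cancels. The log2 ratio of G6pdx to H6pd, the glucose-6-phosphate dehydrogenase of the endoplasmic reticulum lumen, was -1.33, -1.20, -1.49 and -1.06 in KO libraries 1 to 4. It was -2.20, -1.47, -1.54 and -1.81 in WT libraries 1 to 4, so 3 of the 4 KO libraries were above all WT libraries and KO library 3 was not. The means were -1.27 ± 0.18 in KO fat and -1.75 ± 0.33 in WT fat (SD, n = 4 each). The difference of 0.48 (1.40-fold) had a two-sided exact permutation p of 0.0571, or 0.171 adjusted over the 3 ratios, where the smallest p that 70 assignments allow is 0.0286. H6pd itself had a log2FC of -0.01 (edgeR's adjusted p = 0.973), a sign that turned in 8 of 19 other settings.

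The log2 ratio of Idh1 to Idh2, the mitochondrial NADP-linked isocitrate dehydrogenase, averaged 0.99 ± 0.36 in KO fat and 0.93 ± 0.10 in WT fat (SD, n = 4 each). Among KO libraries it ran from 0.49 in library 3 to 1.32 in library 1, on both sides of the WT range of 0.78 to 1.03. The log2 ratio of Me1 to Me2, a mitochondrial malic enzyme linked to NAD and not to NADP, averaged 3.33 ± 0.43 in KO fat. It averaged 3.24 ± 0.54 in WT fat (SD, n = 4 each). The exact permutation p was 0.800 for both, also after adjustment over the 3 ratios. These differences, 0.06 and 0.10, were smaller than the SD between mice in either genotype.

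G6pdx, Pgd, Rpe, Taldo1, Tkt and Me1 went up and down together from mouse to mouse. Over the 8 libraries Pearson's r of log2 CPM between these 6 genes, grouped here after their values were seen, ran from 0.73 (G6pdx and Taldo1) to 0.96 (Pgd and Tkt) in 15 pairs, with a median of 0.88. Within a genotype, where the group difference plays no part, the median over the same pairs was 0.93 in KO libraries and 0.91 in WT libraries (4 libraries each). Rpia stood apart, with r from -0.62 to -0.04 against the other 8 genes. Pgls had r from -0.30 to 0.48, and Idh1 was closest to Me1 (r = 0.77). The points of a correlation share a library and its scaling, so these values describe the 8 libraries and are given without a test.

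The same libraries stood at the ends for most of these genes. KO library 4 was the highest of the 8 for G6pdx, Pgd, Tkt and Me1, and WT library 1 was the lowest for 6 of the 9 genes. The median over the 9 genes of the log2 CPM relative to the WT mean was 0.24, 0.22, 0.01 and 0.31 in KO libraries 1 to 4 and -0.35, -0.06, 0.28 and 0.02 in WT libraries 1 to 4. KO library 3 thus lay near the WT mean, and WT library 3 lay as high as the other KO libraries. The duct epithelium markers were at 742 CPM in KO library 2 and 769 CPM in KO library 3, where the medians were 0.22 and 0.01. They were at 96.3 and 98.1 CPM in KO libraries 1 and 4, where the medians were 0.24 and 0.31. The median of KO library 2 was close to that of KO library 1, and the median of KO library 3 was below both. The part of the duct epithelium markers in this order was not tested. WT library 1 also held the most T and B cell marker reads, 247 CPM for 7 markers, against 64.7 to 137 CPM in KO libraries and 56.7 to 97.6 CPM in the other WT libraries.

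**Figure D3:**
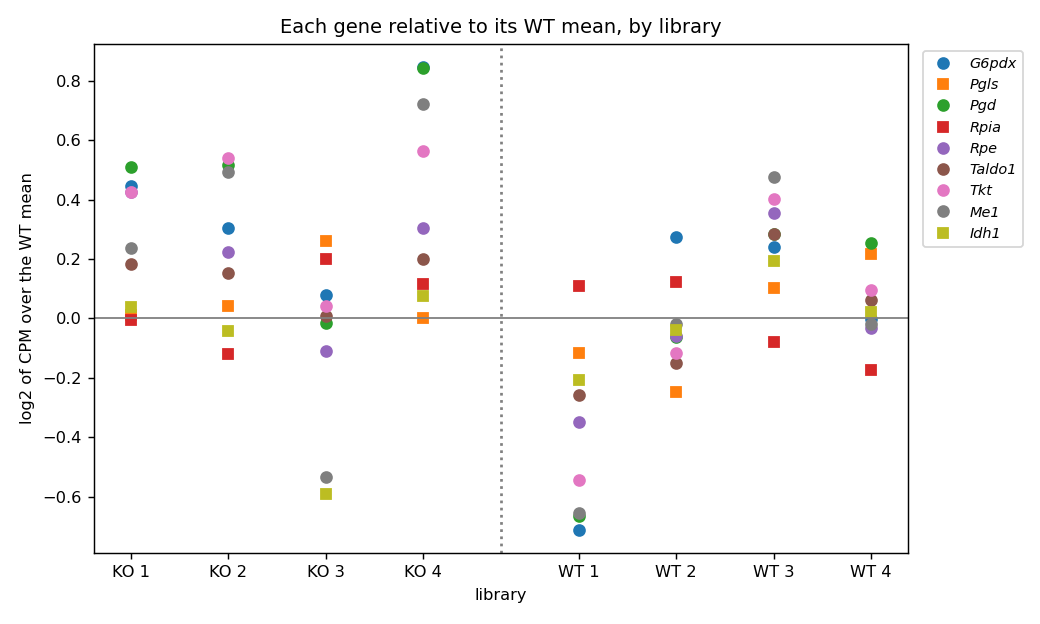
Log2 of the CPM in each library over the WT mean of the same gene (vertical axis), with KO libraries at the left and WT libraries at the right; squares mark Pgls, Rpia and Idh1. The other 6 genes lie high together in KO library 4 and low together in WT library 1, and KO library 3 has Me1 and Idh1 well below 0.

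The spread between mice of one genotype was large for genes at this level. The within-genotype SD of log2 CPM was 0.51 for Me1, 0.40 for Pgd, 0.40 for G6pdx and 0.33 for Tkt, and it was 0.14 for Rpia, 0.17 for Pgls and 0.18 for Taldo1. Among tested genes within 0.5 log2 units of the same mean level, Me1 stood at the 97.4th percentile of this SD, G6pdx at the 93.0th, Pgd at the 91.4th and Rpia at the 32.9th. Over the 9 genes the median SD was 0.26, against 0.20 over all tested genes, and 8 of the 9 were above the median of genes at a similar level.

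**Figure D4:**
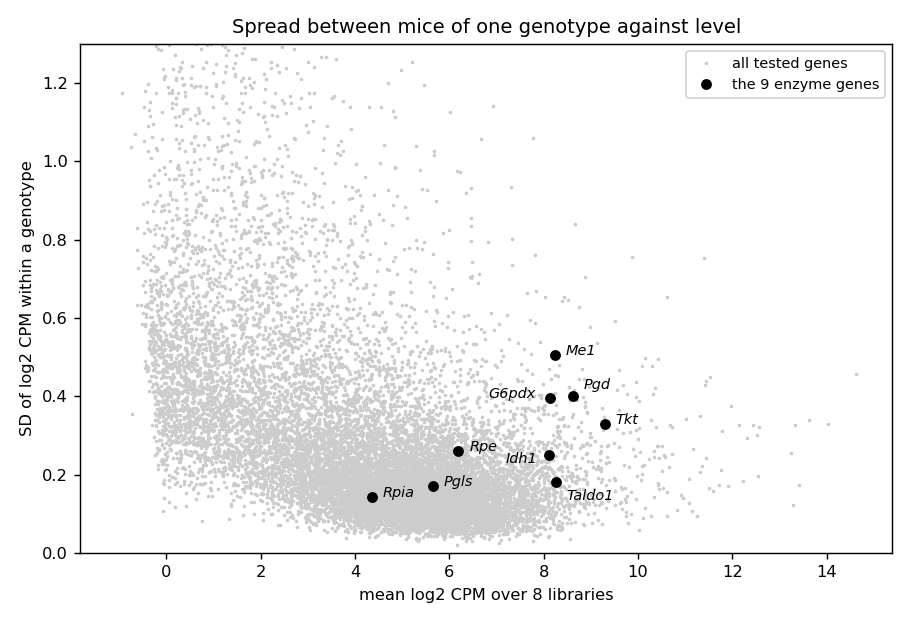
SD of log2 CPM within a genotype (vertical axis) against mean log2 CPM over 8 libraries (horizontal axis) for all tested genes, in grey, and for the 9 enzyme genes, in black. Me1, Pgd, G6pdx and Tkt lie above most grey points at their level, while Rpia, Pgls and Taldo1 lie among them; genes with an SD above 1.3 are not drawn.

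Levels between genes were compared in FPKM, the deposited values scaled to exonic length and library total. In KO fat the order was Taldo1 (162 ± 5.25), Tkt (113 ± 14.5), G6pdx (109 ± 21.2), Idh1 (106 ± 17.9), Me1 (96.8 ± 29.4), Pgd (73.7 ± 14.7), Rpe (25.6 ± 3.38), Pgls (13.8 ± 1.69) and Rpia (3.89 ± 0.44; SD, n = 4). In WT fat it was Taldo1 (145 ± 17.8), Idh1 (113 ± 7.37), Tkt (83.7 ± 18.4), G6pdx (78.8 ± 19.4), Me1 (77.7 ± 20.3), Pgd (51.6 ± 12.2), Rpe (21.6 ± 3.37), Pgls (12.8 ± 1.65) and Rpia (3.72 ± 0.51). Between neighbours in this order, the differences from Tkt down to Pgd were smaller than the sum of their SDs in both genotypes. The exception was Idh1 in WT fat, which stood above Tkt by more. Taldo1 stood above its neighbour, and Rpe, Pgls and Rpia below theirs, by more than that sum. That sum leaves out that both genes were read in the same libraries. Me1 was above Pgd in 4 of 4 libraries of each genotype. The other neighbours from Tkt down to Me1 kept their order in 2 or 3 of 4 libraries.

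The length used matters for this order. The deposited exonic length joins all exons of a gene and exceeded the principal GENCODE transcript 4.22-fold for Pgls, 2.93-fold for Rpia, 2.91-fold for Pgd and 2.03-fold for Tkt, but 1.09-fold for Me1 and 1.10-fold for Idh1. With the principal transcript length, a choice made after seeing the data, Pgd had 214 ± 42.8 in KO fat and 150.0 ± 35.5 in WT fat (SD, n = 4 each) and moved to the third place in both genotypes, ahead of G6pdx, Idh1 and Me1. Taldo1, at 263 ± 8.53 in KO fat and 236 ± 28.9 in WT fat, stayed first, Pgls passed Rpe, and Rpia stayed last. A length changes no comparison between genotypes.

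Around these 9 genes, other sources and users of NADPH and of glucose-6-phosphate were counted from lists. These lists were chosen with earlier results of these data known. Of 25 further NADPH and pentose genes 22 were tested, of which 1 rose, 0 fell and 21 did not pass, with a median log2FC of -0.01. The gene that rose was Rgn, the X-linked regucalcin, which hydrolyses sugar lactones. It had 19, 23, 23 and 33 reads in KO libraries 1 to 4, against 0, 2, 2 and 1 reads in WT libraries 1 to 4. Rgn thus passed the filter on low counts only through the KO libraries, where it is high. Its depth-scaled ratio was 17.9 (95% counting interval 7.40 to 56.2), and edgeR's adjusted p was 0.0168. The KO libraries were at 1.46 to 1.70 CPM. The call was lost with the duct markers as a covariate (edgeR's adjusted p = 0.134), without KO library 2 (edgeR's adjusted p = 0.0745), WT library 2 (0.0590) or WT library 4 (0.0823) and without both KO libraries 2 and 3 (0.0897). Rgn lies on chromosome X, plus strand, at 20549787 to 20562089.

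Other members of that list did not pass. Mthfd2, a mitochondrial folate enzyme, had 14.6 ± 2.70 CPM in KO fat and 7.98 ± 2.57 CPM in WT fat (SD, n = 4 each; edgeR's adjusted p = 0.142). Nadk, which phosphorylates NAD to NADP, had 345 ± 16.2 CPM in KO fat and 303 ± 14.5 CPM in WT fat, without overlap (edgeR's adjusted p = 0.274). Prps2, which makes phosphoribosyl pyrophosphate from ribose-5-phosphate, had 28.9, 52.5, 56.7 and 35.9 CPM in KO libraries 1 to 4 and 25.9 to 33.9 CPM in WT libraries (edgeR's adjusted p = 0.264); it was highest in KO libraries 2 and 3, as the duct epithelium markers were. Log2FC were 0.19 for Me2, -0.20 for Idh2 and -0.33 for Me3, with edgeR's adjusted p at 0.416, 0.462 and 0.677.

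Of 14 tested genes that bring glucose in or compete for glucose-6-phosphate, 0 passed with edgeR (5 had an unadjusted p under 0.05, and of those named DESeq2 passed Slc2a4), and the median log2FC was 0.18. Slc2a4, the insulin-regulated glucose transporter, had 122 ± 32.5 CPM in KO fat and 219 ± 48.9 CPM in WT fat, without overlap (SD, n = 4 each; edgeR's adjusted p = 0.140). G6pc3, a glucose-6-phosphatase, had a log2FC of 0.34 (edgeR's adjusted p = 0.183) and Pfkm, a phosphofructokinase subunit, 0.25 (0.201). The adipocyte marker sum was also lower in these KO libraries, at 29967 to 35098 CPM, against 36590 to 44650 CPM in WT libraries, and its part in the Slc2a4 values was not tested.

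Among 18 tested reductases and oxidases that draw on NADPH, and their partners, 2 rose, 0 fell and 16 did not pass; the median log2FC was 0.27, and 15 were above 0. Cbr3, a carbonyl reductase, had 26.2, 28.2, 23.6 and 25.2 CPM in KO libraries 1 to 4, against 9.20, 8.17, 6.07 and 10.4 CPM in WT libraries 1 to 4 (log2FC 1.60, SE 0.16, edgeR's adjusted p = 0.0168). Gsr, glutathione reductase, had 74.6, 81.2, 75.0 and 72.4 CPM in KO libraries 1 to 4, against 54.4, 53.4, 58.9 and 48.8 CPM in WT libraries 1 to 4 (log2FC 0.49, SE 0.08, edgeR's adjusted p = 0.0378). The groups did not overlap for either gene. Gsr had the same size of log2FC as Pgd, 0.49 against 0.50, with an SE of 0.08 against 0.23. The Cbr3 call was lost without KO library 2 (edgeR's adjusted p = 0.0745), WT library 2 (0.0506) or both KO libraries 2 and 3 (0.0892). The Gsr call was lost without any 1 library other than KO library 1 (adjusted p from 0.0628 to 0.140). Srxn1, sulfiredoxin, had a log2FC of 0.65 (edgeR's adjusted p = 0.0698), Cbr1, another carbonyl reductase, 0.38 (0.0908), and Cyba, a subunit of NADPH oxidase, 0.34 (0.171); DESeq2 passed these 3.

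Lipid synthesis, the main use of NADPH in fat, held 20 tested genes, of which 1 rose, 0 fell and 19 did not pass, with a median log2FC of 0.19. Fads1, a fatty acid desaturase, had 123, 162, 147 and 146 CPM in KO libraries 1 to 4, against 94.6, 82.6, 77.8 and 102 CPM in WT libraries 1 to 4 (log2FC 0.70, SE 0.11, edgeR's adjusted p = 0.0486). That call was lost without any 1 library other than KO library 1 (adjusted p from 0.0670 to 0.158), with limma-voom (0.0596) and with library totals alone (0.0572). Fasn, fatty acid synthase, had 2590.2, 3559, 1434 and 5102 CPM in KO libraries 1 to 4, against 1253, 2398, 3371 and 3871 CPM in WT libraries 1 to 4. KO library 4 was its highest library and WT library 1 its lowest, as for Pgd, G6pdx, Tkt and Me1 (log2FC 0.22, edgeR's adjusted p = 0.841). Acly, which makes the acetyl-CoA for Fasn, had 289, 410.0, 224 and 547 CPM in KO libraries 1 to 4, against 200.1, 326, 364 and 302 CPM in WT libraries 1 to 4 (log2FC 0.30, edgeR's adjusted p = 0.643), with the same libraries at its ends. Sqle, the squalene epoxidase of cholesterol synthesis, had a log2FC of 0.76 without overlap between the groups (edgeR's adjusted p = 0.0630). Fads2, another desaturase, had 11.3, 57.0, 57.3 and 16.8 CPM in KO libraries 1 to 4, against 7.63 to 13.0 CPM in WT libraries (edgeR's adjusted p = 0.171), highest in KO libraries 2 and 3 as the duct epithelium markers were. With the duct markers as a covariate none of Rgn, Cbr3, Gsr and Fads1 passed. Under it the log2FC was 3.97 for Rgn (SE 0.61, edgeR's adjusted p = 0.134), 1.53 for Cbr3 (SE 0.25, 0.145), 0.45 for Gsr (SE 0.13, 0.411) and 0.48 for Fads1 (SE 0.17, 0.470), against 4.03, 1.60, 0.49 and 0.70 without the covariate. DESeq2 also passed Mthfd2, Sqle and Fads2.

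Regulators of lipogenesis and of NRF2 did not pass with edgeR either. Of 10 tested lipogenic regulators 0 passed with edgeR (4 had an unadjusted p under 0.05, and of those named DESeq2 passed Mlxipl). Mlxipl, which encodes the carbohydrate-response factor ChREBP, had 88.4, 111, 85.4 and 98.8 CPM in KO libraries 1 to 4, against 135, 128, 157 and 189 CPM in WT libraries 1 to 4 (log2FC -0.67, edgeR's adjusted p = 0.0907). Srebf1, the sterol-regulatory factor of lipogenesis, had a log2FC of -0.58 without overlap (edgeR's adjusted p = 0.195), and Scap, its escort protein, 0.22 (0.293). Of 7 regulators of NRF2, 0 passed with edgeR (1 had an unadjusted p under 0.05, and of those named DESeq2 passed Sqstm1). Sqstm1, the cargo adaptor p62 that binds the NRF2 inhibitor KEAP1, had 514 ± 24.0 CPM in KO fat and 405 ± 43.9 CPM in WT fat, without overlap (SD, n = 4 each; log2FC 0.34, edgeR's adjusted p = 0.159). Nfe2l2, the NRF2 gene itself, had a log2FC of -0.15 (edgeR's adjusted p = 0.365), and Maff, a small partner of NRF2, 0.20 (0.635).

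**Figure D5:**
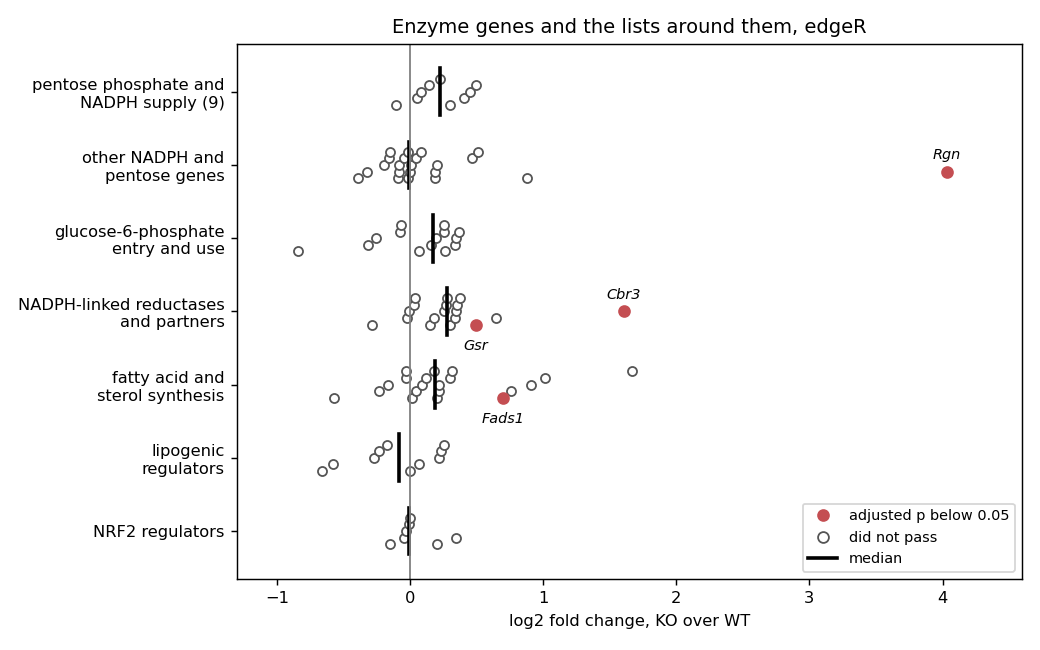
Log2 fold change, KO over WT (horizontal axis), of the tested genes of each list (rows), as points spread vertically for visibility; filled points passed an adjusted p of 0.05 with edgeR and bars are list medians. The 9 enzyme genes have no filled point and a median of 0.22, and the filled points are Rgn, Cbr3, Gsr and Fads1.

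For the genes with the lowest unadjusted p, the tested genes whose log2 CPM was most like theirs over the 8 libraries were found by Pearson's r, as the highest of 14799. They were Aldh1a7, Gins4 and Emc3 for Pgd (r = 0.998, 0.994 and 0.984), Apip, Vdac1 and Grpel1 for Tkt (0.994, 0.986 and 0.983), Becn1, Ubqln2 and Mmgt1 for G6pdx (0.991, 0.977 and 0.975), and Cript, Thoc3 and Ginm1 for Rpe (0.993, 0.984 and 0.979). With 8 libraries and so many genes ranked, values of this size are a description of these libraries.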

How the data were processed

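RNA of 8 libraries, 4 KO and 4 WT, was analysed from 1 deposited table. Per the labels' protocols, polyadenylated RNA went into stranded TruSeq libraries read for 50 cycles from one end. Build mm10, Novoalign 2.8.1 and Picard are listed, without roles, in the submitters' processing notes; no source used here states the counting program or annotation. Per the file headers the authors deposited raw counts per gene and FPKM values, scaled to exonic length and library total; each of the 158499 FPKM values above 0 matched that formula within 0.1%. Starts in the file count from 0 and are printed from 1. Groups and replicate numbers come from sample titles.

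Counts were tested with R 4.3.3 and edgeR 4.0.16: filterByExpr with a minimum count of 10, TMM, the quasi-likelihood F test with no covariate, and Benjamini-Hochberg adjustment over all 14800 tested genes. Standard errors and 95% intervals derive from that test. Its script was tested on simulated counts. Ratios within a library were compared by two-sided exact permutation tests. P-values measure the spread between these mice. Counting intervals are exact binomial ones and cover counting error only. All pairs of libraries from one genotype differed beyond sampling noise (chi-square per gene 18.2 or more). Shared 50-base words are exact matches, on either strand, among GENCODE M21 transcripts; of 172 list symbols 171 were found in the table.

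The 9 genes and all lists were chosen with earlier results of these data known. All 9 are named; of each list, the called genes and the 3 others with the lowest unadjusted p are named, with Fasn, Acly, Idh2, Me2, Me3, H6pd, Gsr and Nfe2l2; 1 gene under this rule is not reported here. Alternatives were RLE, upper quartile and library total scaling, no filter or 1 CPM in 4 libraries, DESeq2 1.42.0, limma-voom (limma 3.58.1), a block for the replicate number, robust edgeR, 12 tested duct epithelium markers as a covariate, each library left out, and KO libraries 2 and 3 left out; a principal transcript length was added after seeing the data.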

Additional observations from a re-analysis of the deposited data

Results flagged for a closer look

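Among 80 groups of 4 libraries checked for a library far from the other 3, 3 were marked, where chance marks about 1 in 20. Pgls was high in KO library 3, at 58.5 CPM, with the other KO libraries between 48.9 and 50.3 CPM; the gap was 0.855 of the group's range. Cbr1 was high in WT library 3, at 49.1 CPM, with the other WT libraries between 43.9 and 44.3 CPM (0.930 of the range). Me3, the third malic enzyme gene, was high in KO library 3, at 3.81 CPM, with the other KO libraries between 1.97 and 2.15 CPM (0.900 of the range).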

How the results depend on the processing

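The count of enzyme genes that passed was 0 of 9 in all 19 other settings. At an unadjusted p under 0.05 with edgeR it was 3 with library totals alone, where 2285 of 14800 tested genes were also under 0.05. It was 3 with the duct marker covariate (1381 of 14800 tested genes) and 3 without KO library 3 (1990 of 14890). It was 4 without WT library 3 (2461 of 15086) and 2 without KO libraries 2 and 3 (1294 of 15191). Over all genes 60 were called, against 810 with DESeq2, 14 with the replicate number as a block, 2 with the duct marker covariate and 3 without KO libraries 2 and 3. With 1 library left out the count ran from 0 (without KO library 2, where 1573 had an unadjusted p under 0.05 by edgeR) to 290 (without KO library 1), and it was 23 without KO library 3 and 7, 4, 20 and 8 without WT libraries 1 to 4. The cause was not tested. The deviations of same-numbered KO and WT libraries had correlations from -0.25 to 0.18. No pairing was evident from this, but so few libraries cannot exclude one, and the block rests on no known pairing. Under the block Rgn, Gsr and Fads1 did not pass (edgeR's adjusted p = 0.0903, 0.137 and 0.165). The log2FC of Idh1 was 0.26 with the duct marker covariate, 0.068 without KO libraries 2 and 3, and -0.17 to 0.031 with 1 library left out. That of Pgls was -0.012 with the covariate, and that of Rpia -0.0017 to 0.11 with 1 library left out. With the covariate Prps2 was at -0.22, Fads2 at -0.59 and H6pd at 0.26. H6pd was also at 0.14 without KO libraries 2 and 3, 0.0024 with upper quartile scaling, 0.0054 with library totals, and -0.088 to 0.054 with 1 library left out. Fasn ran from -0.11 to 0.47 with 1 library left out. The difference in log2 ratio was -0.047 to 0.23 for Idh1 to Idh2, -0.12 to 0.30 for Me1 to Me2 and 0.34 to 0.58 for G6pdx to H6pd with 1 library left out. Each of the 9 genes had at least 231 reads in every library.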

Other observations

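Gapdh, the glycolytic enzyme next to the point where the non-oxidative arm rejoins glycolysis, was listed at only 2.50 to 3.47 CPM in KO libraries and 2.998 to 4.90 CPM in WT libraries, while its neighbour in the pathway, Tpi1, had 219 to 414 CPM in KO libraries and 182 to 344 CPM in WT libraries. The gene has many processed copies in the mouse genome. These values were looked at after the data were seen, and whether the counting dropped reads with several matches was not tested.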
